A study of Rattus norvegicus with 4 samples.

Results

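Homeostatic chemokines are small secreted or membrane-bound proteins that position leukocytes in resting tissue, and their genes are described here in rat synovium. The genes were chosen by symbol: 7 ligands (Cxcl12, Cxcl13, Cxcl14, Cxcl16, Ccl11, Ccl19 and Ccl21) and 2 receptors (Cxcr4 and Ackr3). All 9 were found among 17899 genes of the expression table, and all 9 passed the filter on low values. The synovium, the lining tissue of the joint, came from rats with osteoarthritis, and every library shares that disease state. One library is from tissue that was given human AdMSCs (AdMSC 1) and one from tissue that was given human SyMSCs (SyMSC 1), names that stand for mesenchymal stem cells and that the labels do not spell out. PBS 1 and PBS 2 are from tissue that was given PBS, a salt buffer, and carry the Ad and the Sy title word respectively. Their titles also say "mix", which the labels do not explain, so the groups rest on the treatment label. Synovium was taken a day after the cells were given. Strain, age, sex, the way osteoarthritis was made and the number of animals behind a library are not stated in the labels used here.

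In textbook terms, CXCL12 is made by fibroblasts, pericytes and endothelium and holds leukocytes and progenitors that carry CXCR4, while ACKR3 takes CXCL12 up without classical G protein signalling. CXCL13 draws cells with CXCR5, chiefly B cells, and CCL19 and CCL21 draw cells with CCR7, such as dendritic cells and naive T cells. CCL21 is a product of lymphatic endothelium and lymph node stroma, CCL11 (eotaxin) attracts eosinophils through CCR3, CXCL16 is a membrane-anchored ligand of CXCR6, and CXCL14 is made constitutively by many epithelia and stromal cells.

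Levels are TPM, the length-normalised share of a library's transcripts, so levels of different genes within a library can be compared. TPM gives no read depth, and so no counting error can be attached to a level. Between 12582 and 13155 genes reached 1 TPM in a library, and the lining gene Prg4, which encodes lubricin, stood between 2448 TPM and 4192 TPM. Genes of neighbouring tissue were uneven. For skeletal muscle, the 5 genes of that list summed to 1264 TPM in PBS 1, 461 TPM in PBS 2, 126.3 TPM in SyMSC 1 and 93.7 TPM in AdMSC 1. The 5 adipocyte genes summed to 522.4, 1468, 261 and 222.3 TPM in the same order. A change is the injected mean (n = 2 libraries, AdMSC 1 and SyMSC 1) minus the PBS mean (n = 2) of log2(TPM + 1), a scale that compresses changes at low levels. It was tested with limma over all 13371 genes that passed the filter, with adjusted p from the Benjamini-Hochberg method. The labels do not say that libraries came from separate animals, so a p measures the spread between these libraries, which may be technical. The injected group joins AdMSC 1 and SyMSC 1, so its spread also holds any difference by cell source. In bulk tissue a lower value can mean fewer cells of a type, less RNA per cell or a larger share of RNA from other cells. These cannot be told apart.

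Of the 9 genes, Cxcr4 and Cxcl13 rose after injection, Cxcl12, Ccl11 and Ackr3 fell, and Ccl21, Ccl19, Cxcl14 and Cxcl16 did not pass an adjusted p of 0.05. Over all tested genes 48.4% were called by the same limma test (23.7% higher, 24.7% lower), so 5 called of 9 is near the background. In 6 of the 9 genes the injected and PBS libraries did not overlap, against 78.8% of all tested genes. The median change of the 9 genes was -0.82, beside 0.00 (0.0009) over all tested genes, and the median size of change without sign was 1.502 beside 0.496. The plot of levels by library shows each value.

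**Figure D1:**
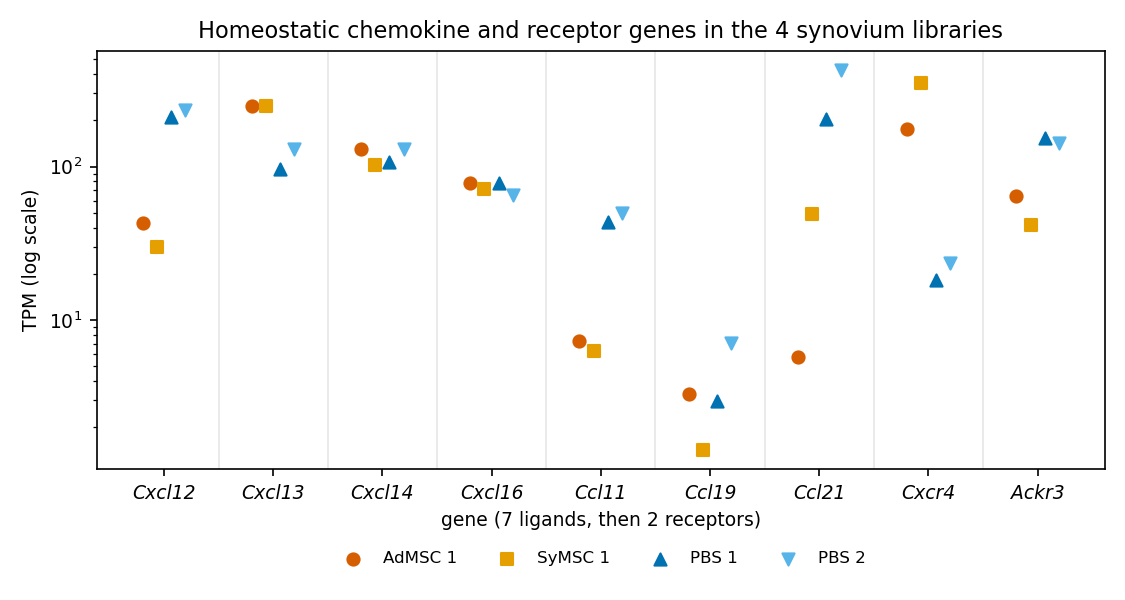
TPM of each gene (log axis) in the 4 libraries, with 1 point per library. Cxcr4 and Cxcl13 lie higher in both injected libraries than in both PBS libraries. Cxcl12, Ccl11, Ccl21 and Ackr3 lie lower, and Cxcl14, Cxcl16 and Ccl19 overlap.

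The promoter sequences of the genes that passed the test are given first, since these are the members that moved with injection. They are the 250 bases before the annotated start, from RefSeq on the build GRCr8, 5′ to 3′ on the gene's strand. An entry matched for 8 of the 9 genes, and Ccl11 had none. Capitals mark the 5-letter motif GCGTG, part of the hypoxia response element family, and the TATA box letters TATAAA, on either strand.
Cxcr4 (chr13:42634289-42634538, minus strand): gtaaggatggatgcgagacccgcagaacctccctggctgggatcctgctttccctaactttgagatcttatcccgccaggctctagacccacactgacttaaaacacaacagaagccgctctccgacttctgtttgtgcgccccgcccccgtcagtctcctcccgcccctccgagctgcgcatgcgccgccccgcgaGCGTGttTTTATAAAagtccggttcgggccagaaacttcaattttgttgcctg
Cxcl13 (chr14:13917921-13918170, minus strand): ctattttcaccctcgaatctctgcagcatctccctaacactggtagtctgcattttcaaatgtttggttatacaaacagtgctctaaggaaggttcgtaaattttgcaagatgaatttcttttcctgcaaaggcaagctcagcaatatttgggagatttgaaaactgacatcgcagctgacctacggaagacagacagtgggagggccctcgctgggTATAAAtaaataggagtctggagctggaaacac
Cxcl12 (chr4:152060531-152060780, plus strand): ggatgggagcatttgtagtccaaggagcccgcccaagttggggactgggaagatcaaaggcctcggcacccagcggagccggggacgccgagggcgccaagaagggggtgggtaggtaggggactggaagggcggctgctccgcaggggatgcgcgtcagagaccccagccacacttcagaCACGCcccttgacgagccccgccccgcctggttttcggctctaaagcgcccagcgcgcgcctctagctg
Ackr3 (chr9:98247104-98247353, plus strand): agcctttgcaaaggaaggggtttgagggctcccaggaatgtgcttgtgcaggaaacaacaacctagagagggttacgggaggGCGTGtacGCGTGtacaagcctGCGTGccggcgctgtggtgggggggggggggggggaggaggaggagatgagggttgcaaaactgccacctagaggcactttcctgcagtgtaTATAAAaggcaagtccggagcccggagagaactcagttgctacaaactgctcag
GCGTG was found in 4 of the 8 matched promoters (Cxcr4, Cxcl12, Ackr3 and Cxcl14) and in 27.2% of all 27457 rat promoters of this length. It therefore occurred before a gene that rose, before genes that fell and before Cxcl14, which did not pass. Ackr3 held 3 copies, 168, 160 and 146 bases before the start. TATAAA was found in 3 of the 8 (Cxcr4, Cxcl13 and Ackr3) and in 13.1% of all promoters. The Cxcr4 window holds it on both strands in overlap, at 46 and 44 bases before the start. ACGTG, the kB consensus and TTCNNNGAA, searched on both strands, had no match in the 8 windows, against 16.9%, 4.27% and 7.52% of all promoters. A match is a string of letters and not a measured binding site.

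Among the ligands, Cxcl12 (gene ID 24772) stood at 42.5 TPM in AdMSC 1, 29.8 TPM in SyMSC 1, 210.1 TPM in PBS 1 and 235.2 TPM in PBS 2. Both injected libraries were low, and the groups did not overlap. Its mean was 6.16-fold lower after injection, at 36.2 ± 9.02 TPM (SD, n = 2) against 222.6 ± 17.8 TPM (SD, n = 2). The log2 change was -2.61 (SE 0.19, limma adjusted p = 0.000396). By rank among all 17899 genes, Cxcl12 went from place 622 in PBS 1 and 565 in PBS 2 to place 3105 in AdMSC 1 and 4046 in SyMSC 1. The change held under all 10 alternative settings, between -2.86 and -2.36.

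Genes of the cell types that commonly make CXCL12 were lower as well. Over all tested genes 24.7% were called lower. In the list of sublining fibroblast genes 9 of 10 were called lower, in blood endothelial genes 7 of 7 and in mural (pericyte and smooth muscle) genes 6 of 6. The median changes of these lists were -1.69, -1.996 and -1.96. The summed levels ranged from 9098 to 12820 TPM after injection and from 28640 to 35620 TPM with PBS for sublining fibroblast genes. They were 123.7 to 168.1 against 539.7 to 599.9 TPM for endothelial genes and 291.5 to 426.3 against 1447 to 1735 TPM for mural genes. Cxcl12 was also set against these sums, in which the most abundant genes of a list weigh most. Per 1000 TPM of the endothelial sum it stood at 253.1 in AdMSC 1 and 240.8 in SyMSC 1, against 389.3 in PBS 1 and 392.1 in PBS 2. Per 1000 TPM of the mural sum it stood at 99.8 and 102.2 against 145.2 and 135.6, and per 1000 TPM of the sublining sum at 3.32 and 3.27 against 5.90 and 8.21. All of these ratios were lower in the injected libraries, without overlap. They depend on the genes in the sum. The list medians fell by less than Cxcl12, but Dpt of the sublining list (-3.35) and Myh11 of the mural list (-3.16) fell by more. The part of these cell types in the fall of Cxcl12 was not tested.

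Ccl11 (gene ID 29397), which encodes eotaxin, fell by about as much as Cxcl12. It stood at 7.33 TPM in AdMSC 1, 6.30 TPM in SyMSC 1, 43.8 TPM in PBS 1 and 49.9 TPM in PBS 2. The injected values were low and close together, at 6.82 ± 0.728 TPM (SD, n = 2) against 46.8 ± 4.35 TPM (SD, n = 2) with PBS. The log2 change was -2.61 (SE 0.15, limma adjusted p = 0.000257). Under the 10 alternatives it stayed called, between -2.76 and -2.52. Eosinophil genes did not follow it: of 5 genes 3 could be tested, of which 1 was called higher and 2 were not called. Their summed level was 6.60 and 25.1 TPM in AdMSC 1 and SyMSC 1, and 22.5 and 4.33 TPM in PBS 1 and PBS 2, so the groups overlapped. The gene called higher was Siglec5, and 0 were called under upper-quartile scaling, with no filter, without PBS 1 or without PBS 2. The granule gene Prg2 stood at 1.24, 7, 15.8 and 1.85 TPM in AdMSC 1, SyMSC 1, PBS 1 and PBS 2, and Epx at 0.18, 1.48, 4.89 and 0.26 TPM. Prg3 and the interleukin 5 receptor gene Il5ra lay between 0 and 0.34 TPM in every library.

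Cxcl13 (gene ID 498335) was the ligand gene that rose. It stood at 248.5 TPM in AdMSC 1 and 247.4 TPM in SyMSC 1, against 95.7 TPM in PBS 1 and 130.5 TPM in PBS 2. The injected libraries were nearly equal, at 247.9 ± 0.834 TPM (SD, n = 2), and lay above both PBS libraries, at 113.1 ± 24.7 TPM (SD, n = 2). The log2 change was 1.14 (SE 0.17, limma adjusted p = 0.00309), and it stayed called under the 10 alternatives, between 0.92 and 1.37. Follicular dendritic cells and B cells are the cells best known for the CXCL13 axis. Of the 5 genes on the follicular dendritic and reticular list, Cr2, Fcer2 and Madcam1 lay between 0 and 0.91 TPM in every library. The other 2, which many cell types express, were abundant: Clu fell from 1233 and 1370 TPM to 169.1 and 219.1 TPM (limma, log2 change -2.75), and Cr1l stood between 93 and 97.6 TPM and was not called. For B cells, in the fit on all 4 libraries limma called no B cell gene among the 4 of 6 that could be tested, nor was an unadjusted p under 0.05. The absence of a call did not hold when AdMSC 1 or PBS 1 was left out. The summed level of the 6 B cell genes was 7.89 and 25.0 TPM in AdMSC 1 and SyMSC 1 and 13.3 and 4.32 TPM in PBS 1 and PBS 2. Monocyte and macrophage genes rose beside Cxcl13, in a table where 23.7% of all tested genes were called higher. In the monocyte and macrophage list 7 of 8 were called higher (median 2.03), with sums of 6713 to 8174 TPM after injection and 1644 to 1868 TPM with PBS. Their part in the rise of Cxcl13 was not tested.

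Ccl21 (gene ID 298006) had the largest change of the 9 genes and the largest spread. It stood at 5.75 TPM in AdMSC 1, 49.3 TPM in SyMSC 1, 203.9 TPM in PBS 1 and 426.9 TPM in PBS 2. Every injected value was below every PBS value, yet the PBS libraries differed 2.09-fold and the injected ones 7.45-fold on TPM + 1. The log2 change of -4.01 (SE 1.32, 95% interval -8.46 to 0.45) did not pass (limma adjusted p = 0.107). The call depended on the setting. It passed without SyMSC 1 (-5.45, limma adjusted p = 0.0318), with limma on all genes above 0 (0.0439), without limma's trend and robust options (0.0226) and with the title arm as a block (0.019), and over the 10 alternatives adjusted p ran from 0.019 to 0.444.

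Lymphatic endothelial genes stood beside Ccl21 as follows. Of 6 genes 5 could be tested, 3 were called lower and 2 were not called, with a median of -0.83. Only 1 was called without SyMSC 1, and 2 without PBS 2. The lymphatic regulator gene Prox1 was at 0.01 TPM in both injected libraries and at 0.36 and 0.25 TPM in PBS 1 and PBS 2. The gene of the lymphatic matrix protein Mmrn1 stood at 0.06 and 0.40 TPM after injection and at 5.18 and 5.36 TPM with PBS. The summed level of the list did not separate the groups (331.1 and 226.8 TPM against 288.6 and 283.0 TPM), since Pdpn, which fibroblasts also express, made up most of it. Whether lymphatic vessels set the level of Ccl21 was not tested.

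Ccl19 (gene ID 362506), the other CCR7 ligand, was the lowest of the 9 genes. It stood at 3.28 TPM in AdMSC 1, 1.42 TPM in SyMSC 1, 2.98 TPM in PBS 1 and 7.08 TPM in PBS 2, so the groups overlapped. The log2 change was -0.82 (SE 0.45, 95% interval -1.97 to 0.33, limma adjusted p = 0.189). It passed only without PBS 1, at -1.33 (limma adjusted p = 0.0393). Within a library Ccl21 was 68.4 times Ccl19 in PBS 1, 60.3 times in PBS 2, 34.7 times in SyMSC 1 and 1.75 times in AdMSC 1.

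Cxcl14 (gene ID 306748) and Cxcl16 (gene ID 497942) kept their levels within narrow ranges. Cxcl14 stood at 129.9 TPM in AdMSC 1, 101.7 TPM in SyMSC 1, 107.2 TPM in PBS 1 and 129.2 TPM in PBS 2. The groups overlapped, and the log2 change of -0.03 (SE 0.17, 95% interval -0.45 to 0.38) did not pass (limma adjusted p = 0.884). Cxcl16 stood at 77.8, 70.9, 77.8 and 65.7 TPM in the same order. Its log2 change was 0.06 (SE 0.14, 95% interval -0.28 to 0.39, limma adjusted p = 0.765). Their intervals leave out a change of 1 in either direction on the log2 scale. For Cxcl14 this was measured in tissue where 9 of 10 sublining fibroblast genes were called lower and 1, Pi16, was not called. Which cells the level of Cxcl14 came from was not tested.

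Of the receptors, Cxcr4 (gene ID 60628) rose most. It stood at 174.3 TPM in AdMSC 1 and 348.4 TPM in SyMSC 1, against 18.2 TPM in PBS 1 and 23.7 TPM in PBS 2. Its mean was 12.5-fold higher after injection (261.4 ± 123.1 against 20.95 ± 3.83 TPM, SD, n = 2 each). The log2 change was 3.51 (SE 0.37, limma adjusted p = 0.00297), and it stayed called under the 10 alternatives, between 3.01 and 4.004. In SyMSC 1 it ranked 403 among all 17899 genes, and in PBS 1 it ranked 5697. Ackr3 (gene ID 84348), the atypical CXCL12 receptor, went the other way. It stood at 64.7 TPM in AdMSC 1 and 41.3 TPM in SyMSC 1, against 153.5 TPM in PBS 1 and 143.3 TPM in PBS 2. The log2 change was -1.50 (SE 0.22, limma adjusted p = 0.003), between -1.82 and -1.19 under the alternatives, with the call kept in each.

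Neutrophil and macrophage genes were higher beside Cxcr4. Over all tested genes 23.7% were called higher. Of 8 neutrophil genes 5 were called higher and 3 were not called (median 4.13), with sums of 2292 TPM in AdMSC 1, 4036 TPM in SyMSC 1, 327.8 TPM in PBS 1 and 96.8 TPM in PBS 2. Only 2 of them were called without AdMSC 1 and only 1 without SyMSC 1. Per 1000 TPM of that sum Cxcr4 stood at 76.1, 86.3, 55.6 and 244.4 in the same order, so the ratio overlapped between the groups. Per 1000 TPM of the monocyte and macrophage sum it stood at 26.0 and 42.6 in AdMSC 1 and SyMSC 1, against 11.1 and 12.7 in PBS 1 and PBS 2, without overlap. Other leukocyte lists differed: 5 of 7 T cell genes were called higher and 1, Cd4, lower. The T cell sums were 265.8 and 306.7 TPM against 202 and 230.7 TPM. Cd4 and Cd8a together made up most of the injected sums, and Cd4 alone most of the PBS sums. Cd8a stood at 109.3 and 125.5 TPM in AdMSC 1 and SyMSC 1, against 4.19 and 4.72 TPM in PBS 1 and PBS 2. Of 6 mast cell genes 4 were called lower and none higher, and of 5 dendritic cell genes 1 was called higher and 1 lower. These counts moved with single libraries: T cell genes called higher were 2 without SyMSC 1 and 3 without PBS 1 or PBS 2 (without PBS 2 Cd4 was not called), and mast cell genes called lower were 2 without PBS 2, 3 without PBS 1 and 6 without AdMSC 1. The dendritic call higher ended without PBS 1 or PBS 2, and the call lower without SyMSC 1. The part of these cells in the rise of Cxcr4 was not tested.

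**Figure D2:**
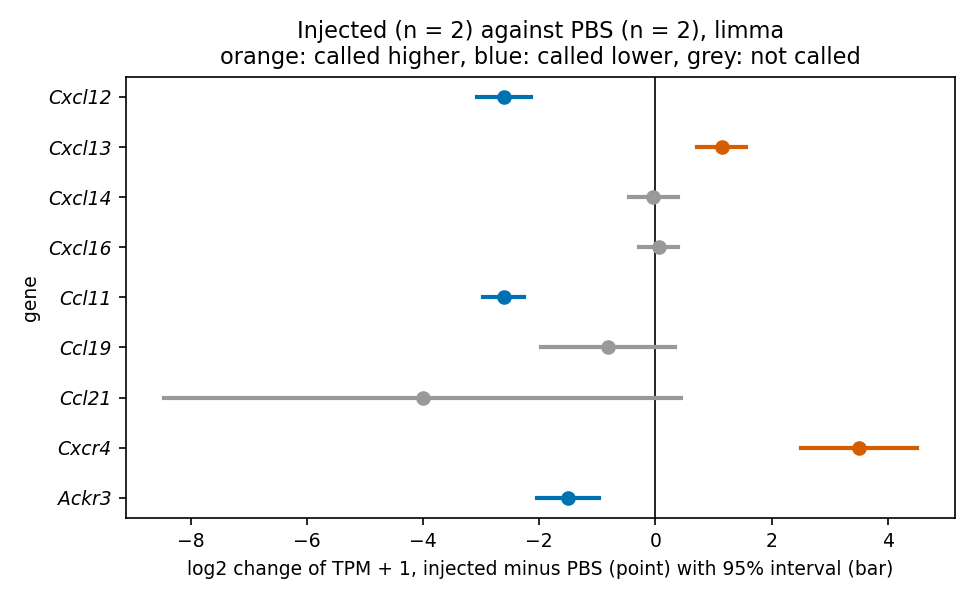
Change of log2(TPM + 1) for each gene, injected (n = 2) minus PBS (n = 2), with points for the limma estimate and bars for its 95% interval. The intervals of Cxcr4 and Cxcl13 lie above 0, those of Cxcl12, Ccl11 and Ackr3 below 0, and that of Ccl21 is the widest, from -8.46 to 0.45.

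The make-up of the ligand transcripts differed between PBS and injected tissue. The 7 ligands summed to 741.3 TPM in PBS 1 and 1044 TPM in PBS 2, and to 515.1 TPM in AdMSC 1 and 506.8 TPM in SyMSC 1. With PBS, Ccl21 and Cxcl12 led, with 27.5% and 28.3% of the sum in PBS 1 and 40.9% and 22.5% in PBS 2. After injection Cxcl13 led, with 48.3% in AdMSC 1 and 48.8% in SyMSC 1, against 12.9% and 12.5% in PBS 1 and PBS 2. Cxcl14 came second there, with 25.2% and 20.1%. These shares do not depend on the scaling of the libraries, but the fall of some ligands raises the share of the rest.

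By mean level with PBS the order was Ccl21, Cxcl12, Ackr3, Cxcl14, Cxcl13, Cxcl16, Ccl11, Cxcr4 and Ccl19. Ccl21 and Cxcl12 overlapped in that order, as did Cxcl14 and Cxcl13, and the other neighbours were apart. After injection it was Cxcr4, Cxcl13, Cxcl14, Cxcl16, Ackr3, Cxcl12, Ccl21, Ccl11 and Ccl19. There Cxcr4 and Cxcl13 overlapped, and so did Ackr3 with Cxcl12, Cxcl12 with Ccl21, and Ccl21 with Ccl11.

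A pair of ratios crossed 1. Cxcl13 stood at 5.84 times Cxcl12 in AdMSC 1 and 8.30 times in SyMSC 1, but at 0.455 and 0.555 times in PBS 1 and PBS 2. Cxcr4 stood at 2.70 times Ackr3 in AdMSC 1 and 8.43 times in SyMSC 1, but at 0.119 and 0.165 times with PBS. The order within each of these pairs was therefore opposite in injected and PBS tissue.

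**Figure D3:**
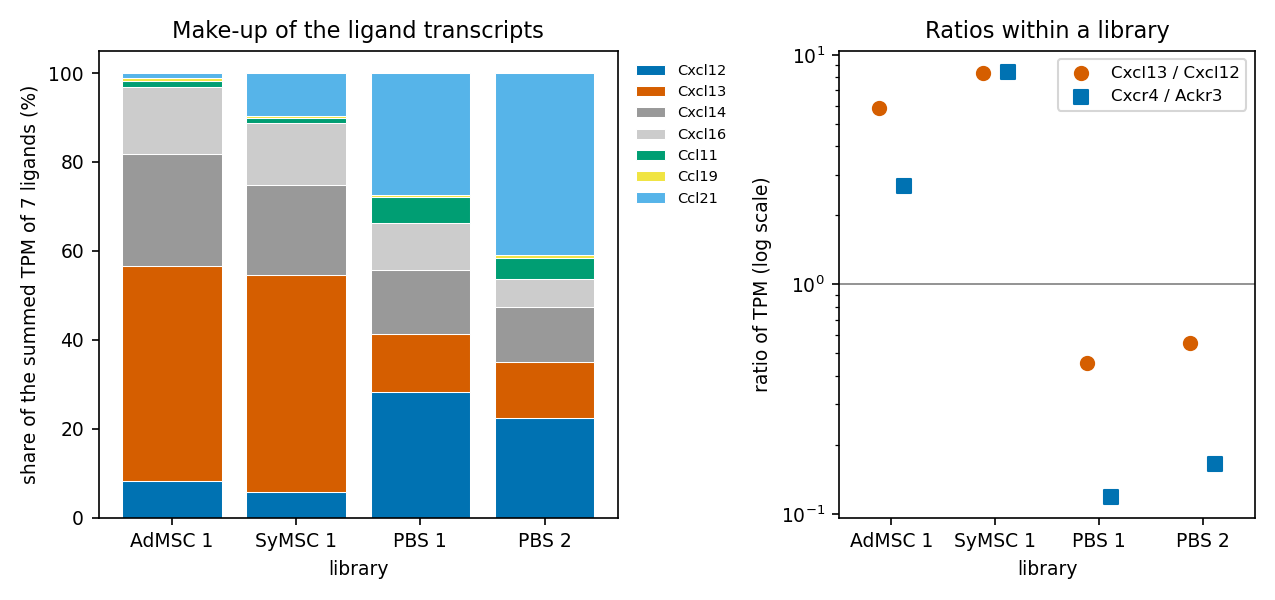
Left, the share (%) of each of 7 ligand genes in their summed TPM, 1 bar per library, where Cxcl13 fills 48.3% and 48.8% of the injected bars and 12.9% and 12.5% of the PBS bars. Right, the ratios of Cxcl13 to Cxcl12 and of Cxcr4 to Ackr3 on a log axis, above 1 in both injected libraries and below 1 in both PBS libraries.

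Each arm of the titles was also compared on its own, with 1 library against 1 and hence no test. The count took in genes with a ratio of TPM + 1 of 2 or more and a higher value of 5 TPM or more. In AdMSC 1 against PBS 1, 8 of the 9 genes reached that floor. Cxcr4 (9.11-fold) and Cxcl13 (2.58-fold) were counted higher, and Ccl21 (30.4-fold), Ccl11 (5.38-fold), Cxcl12 (4.85-fold) and Ackr3 (2.35-fold) lower. Of all genes at that floor 23.4% were counted (11.1% higher, 12.3% lower). In SyMSC 1 against PBS 2, all 9 reached the floor. Cxcr4 (14.2-fold) was counted higher, and Ccl21 (8.51-fold), Cxcl12 (7.67-fold), Ccl11 (6.98-fold), Ackr3 (3.41-fold) and Ccl19 (3.34-fold) lower, where 28.0% of all genes were counted (12.9% higher, 15.1% lower). Cxcl13 was 1.89-fold higher in this arm and missed the ratio. The PBS libraries themselves differed past this rule for Ccl21 (2.09-fold) and Ccl19 (2.03-fold), both higher in PBS 2. So did 2.25% of all genes (0.959% higher and 1.29% lower in PBS 2). PBS 2 had the higher adipocyte sum, and PBS 1 the higher skeletal muscle and neutrophil sums. Whether these bear on Ccl21 or Ccl19 was not tested.

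By cell source, SyMSC 1 against AdMSC 1, the same rule counted Ccl21 alone among the 8 genes at the floor, 7.45-fold higher in SyMSC 1, where 2.22% of all genes were counted (1.48% higher in SyMSC 1). Cxcr4, 1.99-fold higher in SyMSC 1, lay just under the ratio and passed it under other scalings of the libraries. Cxcl13 differed least, with a ratio of 0.995. In a limma fit with 3 groups, whose spread comes from the PBS libraries alone, 0 of 13371 genes passed an adjusted p of 0.05 (0.0%), and 861 had an unadjusted p under 0.05 (6.44%). Among these were 4 of the 9 genes. Cxcr4 was higher in SyMSC 1 by 0.995 on the log2 scale (SE 0.22, limma adjusted p = 0.57) and Ccl21 by 2.90 (SE 0.73, limma adjusted p = 0.775). Ackr3 was lower there, at -0.63 (SE 0.16, limma adjusted p = 0.577), and so was Cxcl12, at -0.50 (SE 0.17, limma adjusted p = 0.726). None of these differences by source passed the correction, and the fit assumes that the lone injected libraries vary like the PBS libraries.

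Of the partners of these ligands, all 7 on the list of cognate receptors and scavengers were called, 3 higher and 4 lower, and their levels ran from 0.07 TPM for Ccr3 to 85.5 TPM for Ackr1. The atypical receptors fell. Ackr2, which takes up inflammatory CC chemokines, stood at 0.97 and 0.86 TPM in AdMSC 1 and SyMSC 1 and at 9.35 and 12.7 TPM in PBS 1 and PBS 2 (log2 change -2.64, limma adjusted p = 0.000482, SE 0.21). Ackr4, the scavenger of CCL19 and CCL21, stood at 2.19 and 2.12 TPM against 7.91 and 9.78 TPM (-1.64). Ackr1, a chemokine carrier of venules, stood at 30.1 and 35.8 TPM against 72.8 and 85.5 TPM (-1.24). With Ackr3, the 4 atypical receptor genes Ackr1 to Ackr4 were therefore called lower after injection, without overlap. Over all tested genes 24.7% were called lower, and 78.8% did not overlap between the groups in either direction.

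Signalling receptors moved both ways from low levels. Ccr3, the receptor of CCL11, rose from 0.07 and 0.22 TPM to 1.33 and 2.78 TPM (log2 change 1.38, limma adjusted p = 0.00773). Ccr7, the receptor of CCL19 and CCL21, rose from 1.74 and 0.25 TPM to 3.87 and 5.13 TPM (1.56, limma adjusted p = 0.0237), a call that ended without AdMSC 1 (0.0682) or SyMSC 1 (0.114) and with a pseudocount of 0.1 (0.0673). Cxcr6, the receptor of CXCL16, rose from 1.23 and 2.73 TPM to 5.20 and 5.58 TPM (1.15, limma adjusted p = 0.016), a call that also ended without AdMSC 1 (0.057) or SyMSC 1 (0.0746). Cxcr5, the receptor of CXCL13, fell from 5 and 5.87 TPM to 1.80 and 2.35 TPM (-1.07, limma adjusted p = 0.00622). Cxcl13 thus stood at 138.1 and 105.3 times Cxcr5 in AdMSC 1 and SyMSC 1, and at 19.1 and 22.2 times in PBS 1 and PBS 2. For Ccl11 and Cxcl13 ligand and receptor genes moved in opposite directions, as they did for Cxcl12 and Cxcr4. This did not hold for every pair. Cxcl12 and its atypical receptor gene Ackr3 both fell, and Ccl19, Ccl21 and Cxcl16 were not called while Ccr7 and Cxcr6 rose.

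Genes of CXCR4 signalling and trafficking, with Mif, an alternative ligand, and its receptor Cd74 (neither of them called), were called higher in 8 of 12 cases and lower in none (limma, also none lower at an unadjusted p under 0.05), with a median change of 0.91. Dock2 (2.19) and Rac2 (2.06), parts of the leukocyte migration machinery, Grk2 (1.64), a kinase that desensitises receptors, and Arrb2 (1.23), an arrestin, were the 4 largest log2 changes. Dock2 and Rac2 are expressed across leukocytes, of which the neutrophil and macrophage lists rose. The part of these cells in the rise of the signalling genes was not tested. Of the lymphotoxin and non-canonical NF-kB genes, a pathway that sustains CXCL13, CCL19 and CCL21 in lymphoid stroma, 7 of 12 were called higher, none lower (nor at an unadjusted limma p under 0.05) and 5 were not called (median 0.68). The count called higher was 6 with no filter on low values or with the title arm as a block, and it moved with single libraries. Over all tested genes 23.7% were called higher. Ltb, which encodes lymphotoxin beta, rose from 2.63 and 2.84 TPM to 37.1 and 64.6 TPM (3.74 on the log2 scale, SE 0.27, limma adjusted p = 0.00045). The cytokine genes Tnfsf11 (1.59), Tnfsf14 (1.23) and Lta (0.96) rose as well, and the call of Lta ended without AdMSC 1 (limma adjusted p = 0.0669). The receptor gene Ltbr was not called, at 106.8 and 101.3 TPM against 111.3 and 117.5 TPM.

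Other homeostatic or dual-use chemokines were called higher in 1 and lower in 3 of the 6 cases tested. Ccl24, a further eotaxin, fell from 20.2 and 31.6 TPM to 3.69 and 2.81 TPM (log2 change -2.64, limma adjusted p = 0.000682). Cx3cl1, which encodes fractalkine, fell by 1.79 on the log2 scale, and Ccl22 rose by 1.44. Xcl1 was called lower by a small margin (-0.59, limma adjusted p = 0.0489), and that call ended with any 1 of the 4 libraries left out (adjusted p from 0.0771 to 0.215) and under 4 other settings. Of 8 genes for proteases that trim or shed these ligands, Adam10, whose product sheds CXCL16, rose by 0.68 (limma adjusted p = 0.00941). That call ended without PBS 1 (0.0571). Mmp2, whose product cuts CXCL12, fell by 1.605 on the log2 scale (limma adjusted p = 0.000929), and the other 6 were not called. The shares called in these lists and in the cell type lists are to be set beside the 48.4% called over all tested genes. By direction these were 23.7% higher and 24.7% lower.

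**Figure D4:**
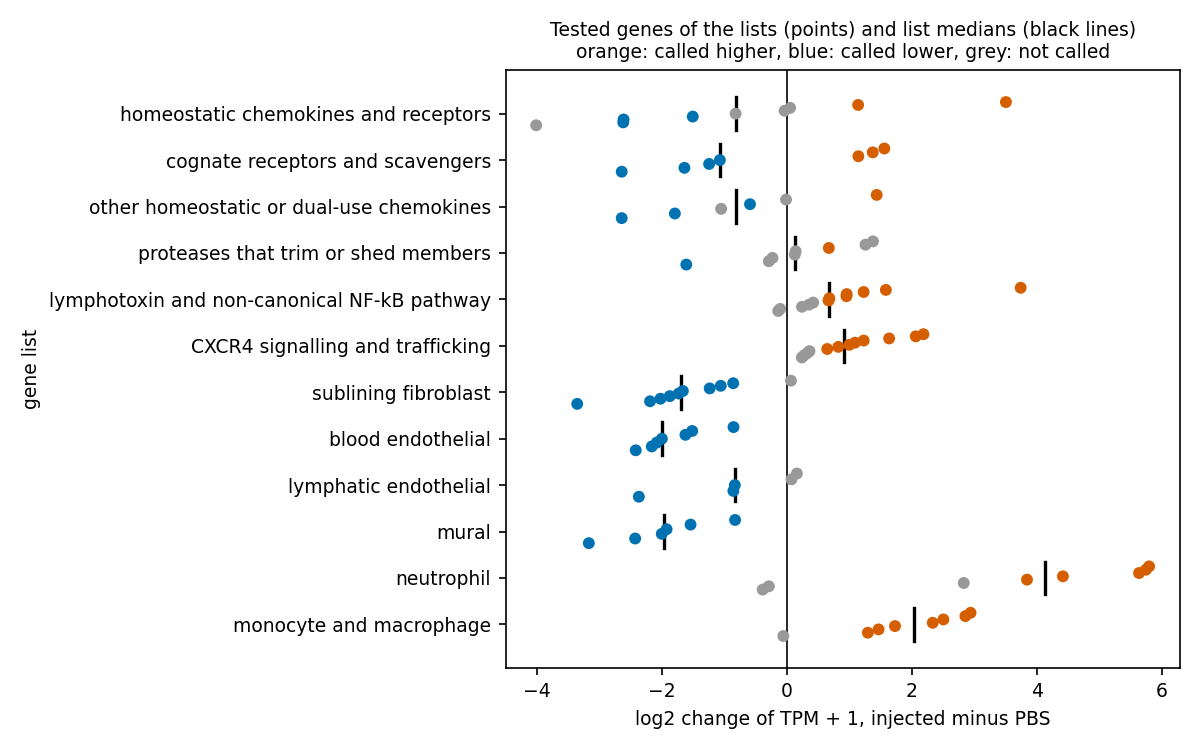
Change of log2(TPM + 1), injected minus PBS, for the tested genes of 12 lists (points, coloured by limma call) with list medians (black lines). Sublining fibroblast, endothelial and mural genes lie mostly below 0, and CXCR4 signalling, lymphotoxin, neutrophil and macrophage genes mostly above 0. The homeostatic chemokines and receptors lie on both sides, and so do the cognate receptors and scavengers (3 called higher, 4 lower).

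Finally, the genes whose pattern over the 4 libraries was most like each member were looked up, by the root mean square difference of centred log2(TPM + 1) values. Over only 4 libraries such likeness is a description. For Cxcl12 these were Mylk (difference 0.0272) and Efhd1 (0.0288), and for Ccl11 Adamtsl4 (0.0522) and Ctnnal1 (0.0584). Ackr3 had Ndn (0.0242) and Rnd2 (0.0259), Cxcr4 had Arhgap25 (0.0713) and Trem3 (0.0925), and Cxcl13 had Rnf150 (0.0297) and Mrps6 (0.057). Cxcl14 had Tmem70 (0.0225) and Nat1 (0.0332), and Cxcl16 had Zfp445 (0.0095) and Lap3 (0.0123). Ccl19 (Pomgnt2, 0.186, and Cenpv, 0.217) and Ccl21 (Rbp7, 0.792, and Grifin, 0.959) had the largest differences from their nearest genes. The measure is not scaled for the size of a gene's changes, which was largest for Ccl21, so it does not rank how widely a pattern is shared.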

How the data were processed

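RNA-seq values of 4 synovium libraries were used. The authors deposited TPM, per the file headers, for 17899 rat genes, and each column sums to between 1000000.03 and 1000000.49. The submitters' processing notes name HISAT2 2.0.4 and the build Rnor_6.0. Neither these nor the labels name the counting tool, the annotation, the use of strand or a separation of rat and human reads, and the part of human RNA in these values was not tested. TPM keeps no read depth.

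The 13371 genes that reached 1 TPM in 2 or more libraries were tested as log2(TPM + 1) with limma 3.58.1 in R 4.3.3 (trend and robust options), injected against PBS with 2 residual degrees of freedom, and with 3 groups and 1 residual degree of freedom for the cell source. The code was tested on simulated data. The 9 genes, the 20 other gene lists and the tests were chosen with earlier results of these data known. Per list, up to 4 genes were to be named (called ones by size of change, otherwise the most abundant); Cxcr5, Cxcr6, Ackr1, Ltbr, Mif, Cd74 and defining cell type markers were named outside that rule, after their values were seen. Likeness was searched among genes with a mean of at least 5 TPM. The title word was tried as a block, but nothing in the labels says that it marks a shared animal or day. Alternatives were other scalings, filters, pseudocounts, folds and floors, and each library left out in turn. Promoters came from RefSeq (GRCr8), a build other than the files', and were matched by gene ID.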

Additional observations from a re-analysis of the deposited data

Results flagged for a closer look

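For Cxcl14 and Ccl19 the arms of the titles moved in opposite directions. Cxcl14 was 0.28 higher on the log2 scale in AdMSC 1 than in PBS 1 (0.275) and 0.34 lower in SyMSC 1 than in PBS 2 (-0.341), so that the Sy arm minus the Ad arm was -0.62. Ccl19 changed by 0.11 (0.105) in the Ad arm and by -1.74 in the Sy arm, a difference of -1.84. Each arm holds 1 library of each kind, so neither difference between the arms was tested. Ccl19 lay at or under 7.08 TPM in every library.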

How the results depend on the processing

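The calls of Cxcr4, Cxcl13, Cxcl12, Ccl11 and Ackr3 were kept under all 10 alternatives of the injected against PBS comparison, so that 2 members were called higher in each. Of these alternatives, 4 leave out a library, which leaves its group (injected or PBS) with 1 library that is assumed to vary like the other group. The count called lower was 3 or 4, with Ccl21 added under 4 alternatives and Ccl19 under 1. Leaving out a library gave 4590 to 5379 called genes over the whole table. Cxcl14 and Cxcl16 lay so near 0 that their sign turned: Cxcl14 was at 0.01 (0.013) under median-ratio scaling and between -0.21 and 0.14 with a library left out, and Cxcl16 was between -0.07 (-0.065) and 0.18 with a library left out. For SyMSC 1 against AdMSC 1, 1 gene was past the ratio of 2, but 2 were under median-ratio or upper-quartile scaling and 3 with a ratio of 1.5. With the title arm as a replicate block Ccl21 passed (limma adjusted p = 0.019) and Xcl1 did not (0.0523), and the members' other calls were kept. The arms' deviations from the group means correlated at 0.117 across genes, which are not independent replicates. Without a library the 3-group fit has no residual degrees of freedom, so it was not run. The depth behind a TPM value is unknown, which limits Ccl19, Ccr3, Ackr2 and other genes near 1 TPM most.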
